A study of Rattus norvegicus with 31 samples.

Results

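ABC efflux transporters of the liver are membrane pumps that spend ATP to move bile acids, phospholipids, sterols, conjugates and drugs out of the hepatocyte. Those of the canalicular membrane empty into bile, and those of the basolateral membrane return conjugates and bile acids to blood. Several are known targets of the xenobiotic receptors CAR and PXR, of the bile acid receptor FXR or of the sterol receptor LXR. The data here describe 10 such genes in the livers of rats given pesticides, namely Abcc2, Abcc3, Abcc4, Abcb1a, Abcb1b, Abcb4, Abcb11, Abcg2, Abcg5 and Abcg8, picked by symbol from the deposited gene tables. Of these, 9 had a row in both tables and passed the filter on low counts, out of 19904 genes tested, and Abcc4 was not analysed here.

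RNA-Seq had been run on livers of 31 young adult female Wistar (Crl:WI) rats after 28 days of daily oral gavage. The 8 control rats received only the vehicle, aqueous carboxymethyl-cellulose, in which every test compound was also suspended. The neonicotinoid insecticide thiacloprid (THI) was given at 108 mg/kg bw/day to 4 rats, the azole fungicide imazalil (IMZ) at 93 mg/kg bw/day to 4 rats, and the neonicotinoid clothianidin (CTD) at 288 mg/kg bw/day to 3 rats. The paper marks this CTD group as one in which at least 1 rat was killed while moribund. The binary mixtures, set by the authors to be equipotent and given to 4 rats each, were THI+IMZ at 54 and 46 mg/kg bw/day, THI+CTD at 54 and 134 mg/kg bw/day, and IMZ+CTD at 46 and 135 mg/kg bw/day. The question put to the data was how each transporter differed between treated and control livers, between treatments, and between a mixture and its compounds. Each rat gave 1 library.

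Library totals were 32.7 M to 101.2 M counts in the controls (median 60.5 M) and 31.8 M to 54.8 M in the treated rats (median 40.2 M). No library of a group repeated another within counting noise. Levels are given as CPM, counts scaled to library size after TMM normalization, and compare livers for 1 gene, not genes with each other, since the tables hold no gene lengths. Differences are log2 fold changes with their standard error (SE), and "called" means an adjusted p under 0.05 in edgeR over all 19904 genes. The 6 comparisons with the vehicle share the same 8 controls. All 6 hepatocyte markers were abundant in every library, Asgr1 (an asialoglycoprotein receptor subunit) never falling under 280.1 CPM, whereas the 7 cholangiocyte markers summed to 11.4 to 23.1 CPM and Krt7 was at 0 in 4 libraries. In whole tissue, fewer cells of a type and less RNA per cell cannot be told apart.

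Abcc3 was up-regulated by every treatment and was the only one of the 9 called in all 6 comparisons with Control. Abcb1a was up-regulated by THI and THI+CTD, Abcb1b by CTD, and Abcg8 was down-regulated by CTD and THI+CTD. Abcc2, Abcb4, Abcb11, Abcg2 and Abcg5 were not called against the controls under any treatment. Called members numbered 2 of 9 for THI (0.543% of all genes tested were called), 1 for IMZ (0.251%), 3 for CTD (12.7%) and 1 for THI+IMZ (1.18%). In the mixtures with CTD they numbered 3 for THI+CTD (4.39%) and 1 for IMZ+CTD (1.46%). At an unadjusted p under 0.05 in edgeR, all genes numbered 1728 for THI, 1608 for IMZ, 5007 for CTD and 2202 for THI+IMZ. They numbered 3502 for THI+CTD and 2557 for IMZ+CTD. The transporters under that threshold numbered 4, 2, 5, 4, 5 and 4 of 9 in the same order. The median log2 fold change of the 9 genes was -0.17 for THI, 0.20 for IMZ, 0.03 for CTD, 0.42 for THI+IMZ, 0.03 and 0.02 for the mixtures with CTD (THI+CTD and IMZ+CTD), beside medians of all genes between -0.07 and -0.01.

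**Figure D1:**
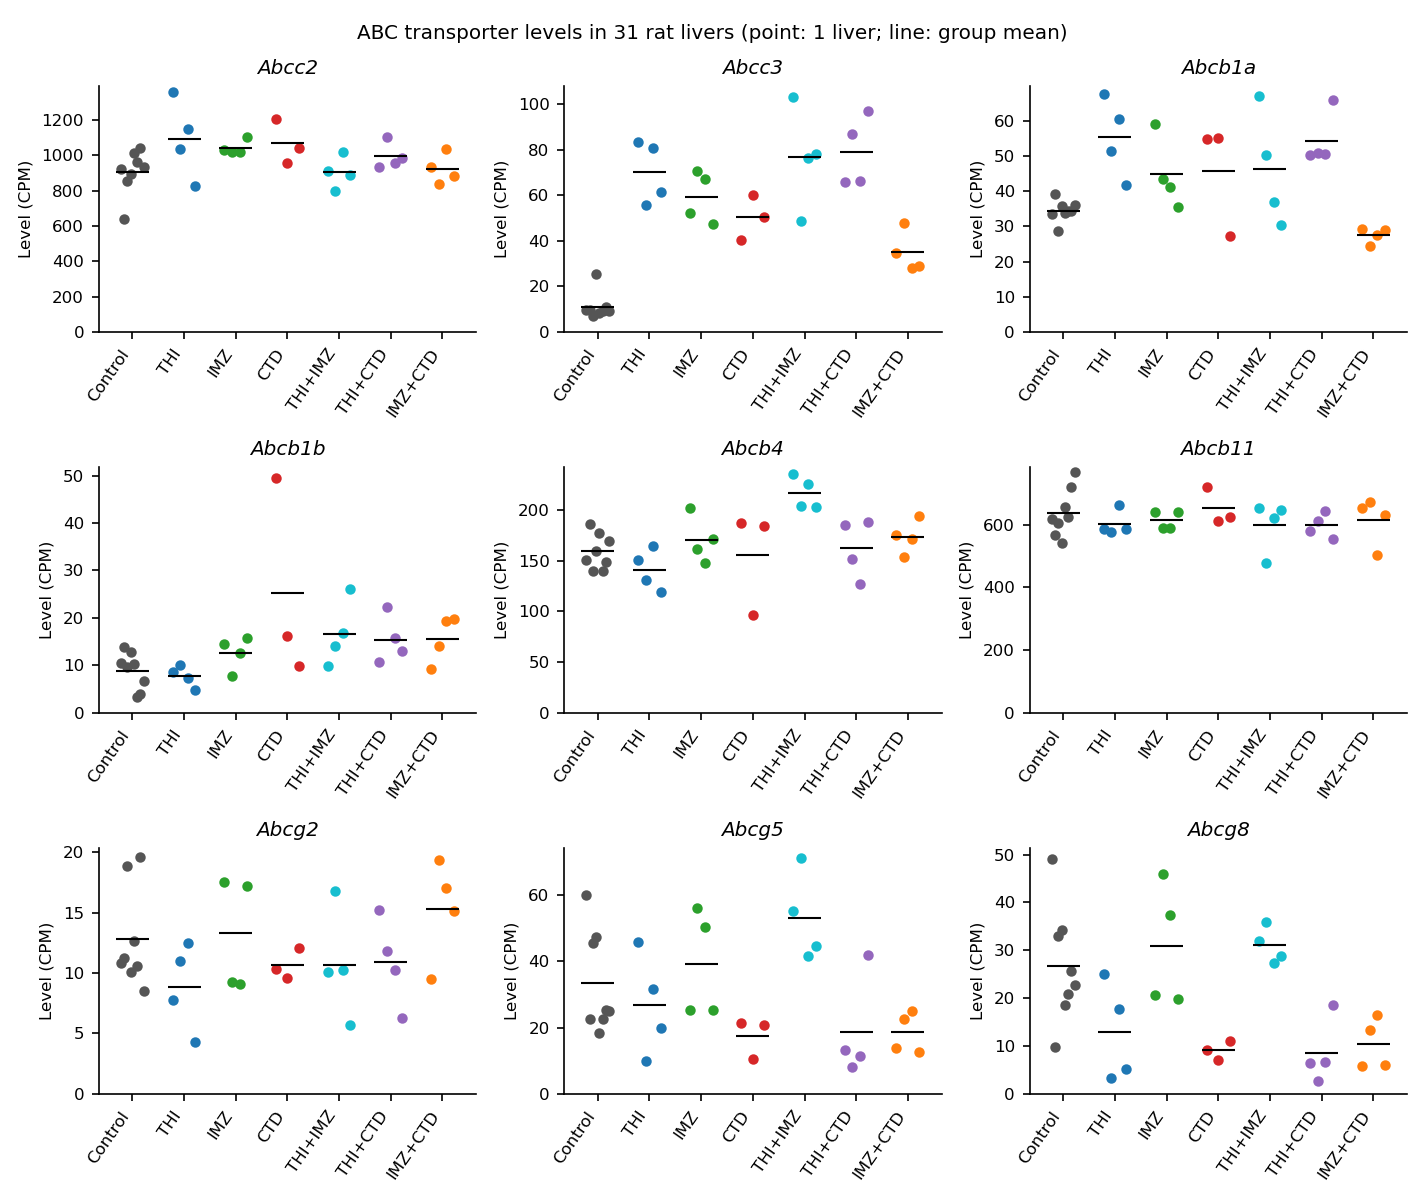
Levels of the 9 transporters in CPM (vertical axis, starting at 0) by treatment group (horizontal axis), with a point for each of the 31 livers and a line at the group mean. Abcc3 lies above all controls in all 23 treated livers, from 28.2 CPM upward against a control maximum of 25.2, while Abcb11 and Abcc2 overlap the controls in every group.

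**Figure D2:**
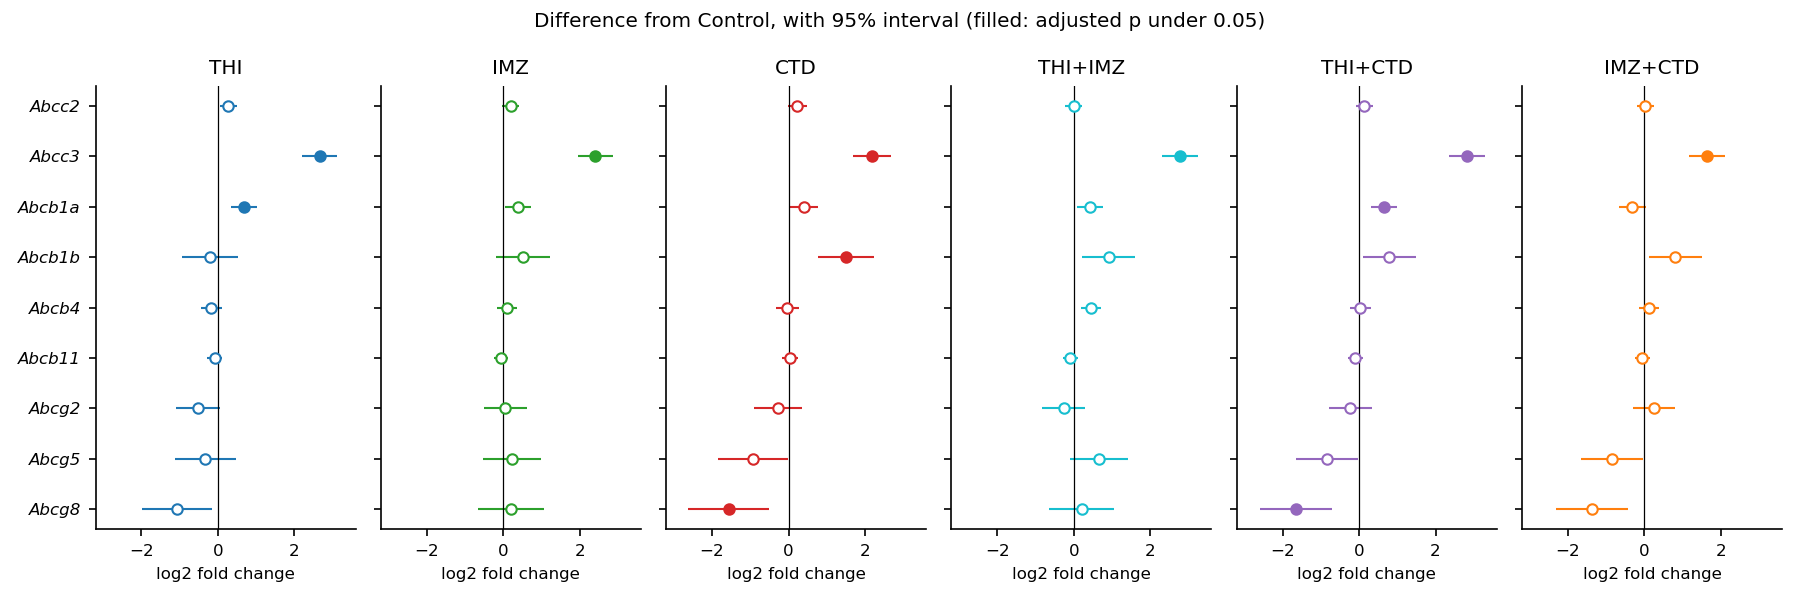
Log2 fold change against Control (horizontal axis) of each transporter (rows) in the 6 treatments (panels), with bars for the 95% interval and filled points where the adjusted p was under 0.05. Abcc3 is filled in all 6 panels, Abcb1a under THI and THI+CTD, Abcb1b under CTD, and Abcg8, on the negative side, under CTD and THI+CTD.

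The basolateral pump Abcc3 (ENSRNOG00000002948, also called MRP3) carries glucuronides and bile acids back to blood. In the 8 controls it ran from 6.97 to 25.2 CPM with a median of 9.38, and 1 control, replicate 4, held the highest value, the next being 10.98. The THI livers read 83.4, 55.7, 80.8 and 61.6 CPM. The IMZ livers read 52.2, 70.7, 67.1 and 47.5 CPM. The 3 CTD livers read 40.5, 60.03 and 50.3 CPM. Every liver of the single compounds thus lay above every control. In the mixtures the livers read 103, 48.8, 76.4 and 78.2 CPM for THI+IMZ. Those of THI+CTD read 65.8, 86.9, 66.2 and 96.8 CPM. Those of IMZ+CTD read 34.7, 47.7, 28.2 and 28.9 CPM, the lowest of the treated groups and still above all controls. Of all 19904 genes, 13 (0.0653%) had all 23 treated livers above all 8 controls, and Abcc3 was the only one of the 9 transporters among them. For single pairs of groups, the share of all genes without overlap was not counted.

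The fold changes of Abcc3 were 6.31 for THI (log2 2.66, SE 0.23, adjusted p = 5.26e-09), 5.32 for IMZ (log2 2.41, SE 0.23, adjusted p = 5.65e-08) and 4.51 for CTD (log2 2.17, SE 0.24, adjusted p = 3.86e-07). They were 6.88 for THI+IMZ (log2 2.78, SE 0.23, adjusted p = 2.50e-09), 7.08 for THI+CTD (log2 2.82, SE 0.23, adjusted p = 8.58e-10) and 3.13 for IMZ+CTD (log2 1.65, SE 0.23, adjusted p = 1.64e-04). All 6 calls were kept when any single rat of the groups compared was left out. Ordered by group mean, THI+CTD (78.9 CPM ± 15.5, SD, n = 4) was followed by THI+IMZ (76.7 ± 22.2, n = 4), THI (70.4 ± 13.8, n = 4), IMZ (59.4 ± 11.3, n = 4), CTD (50.3 ± 9.74, n = 3), IMZ+CTD (34.9 ± 9.02, n = 4) and Control (11.1 ± 5.82, n = 8). Neighbours in this order overlapped in range, except IMZ+CTD and Control.

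The genes whose log2 CPM most resembled Abcc3 over the 31 livers, among 10867 candidates, were Aldh1a1, a retinaldehyde dehydrogenase (Pearson r = 0.956), Grin2c, an NMDA receptor subunit (r = 0.934), and Cyp2b2, a cytochrome P450 (r = 0.933). These livers share the treatment groups, so the values describe the pattern only. Cyp2b1, the cytochrome P450 that serves as the usual read-out of CAR activation in rat liver, averaged 0.504 CPM ± 0.325 (SD, n = 8) in the controls and was called up under all 6 treatments. Its group means ran from 18.7 CPM ± 24.7 (n = 4) under IMZ+CTD, where Abcc3 was also lowest among the treated groups, to 264 CPM ± 75.9 (n = 4) under THI. Nqo1, a quinone reductase used as a read-out of NRF2, averaged 60.2 CPM ± 14.7 (n = 8) in the controls and 61.2 to 86.7 CPM in the treated groups, and was not called under any treatment. Cyp2b1 and Nqo1 come from a list of 8 induction reference genes that also holds Gclc and Srxn1. Of the 7 tested, 5 were called up under CTD, 4 under IMZ and THI+CTD, and 3 under THI, THI+IMZ and IMZ+CTD. The paper's pathway analysis predicted activation of NRF2 by THI, IMZ and CTD. Under THI the unadjusted p in edgeR was under 0.05 for all 7 tested genes of the list, Nqo1 among them. Nqo1 alone does not describe the NRF2 targets as a set. Gclc and Srxn1 are not given one by one, so whether Nqo1 is typical of these targets is not shown here.

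The drug pump P-glycoprotein is encoded in rats by a pair of genes, Abcb1a (ENSRNOG00000008012) and Abcb1b (ENSRNOG00000022719), which lie next to each other on chromosome 4, followed on the far side of Abcb1b by Abcb4, as ordered in RefSeq (GRCr8). The counts were made from uniquely mapped reads, so reads that fit both genes equally well are not in them, and the split between these close paralogs is uncertain to that extent. The pair was called under different treatments, but the genes were not tested against each other. The bases before each start site are shown as a description (RefSeq, GRCr8, each 250 bases, 5′ to 3′ on the gene's strand). Windows of this kind were matched for 7 of the 9 transporters, all but Abcc3 and Abcb11. Capitals mark matches, on either strand, to AGGTCA or AGTTCA (nuclear receptor half-sites), TGACNNNGC (the core bound by NRF2) or CCAAT (bound by NF-Y).
Abcb1a, chr4:26397649-26397898, minus strand: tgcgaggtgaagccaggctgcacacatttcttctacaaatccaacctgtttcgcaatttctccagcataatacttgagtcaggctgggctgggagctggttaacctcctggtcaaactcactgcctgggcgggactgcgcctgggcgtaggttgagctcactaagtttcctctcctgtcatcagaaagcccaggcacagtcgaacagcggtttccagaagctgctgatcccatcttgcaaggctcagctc
Abcb1b, chr4:26280030-26280279, minus strand: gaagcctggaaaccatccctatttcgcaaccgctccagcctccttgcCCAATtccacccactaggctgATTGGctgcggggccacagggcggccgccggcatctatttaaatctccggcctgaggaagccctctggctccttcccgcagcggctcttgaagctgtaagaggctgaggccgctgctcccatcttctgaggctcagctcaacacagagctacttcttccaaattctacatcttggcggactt

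The Abcb1b window held CCAAT once on each strand, starting 203 and 182 bases before the start site, and the Abcb1a window held none of the 4 motifs. Of all 27457 windows of this length in the RefSeq table, 34.2% held CCAAT, 13.7% AGGTCA, 12.1% AGTTCA and 10.2% TGACNNNGC. A match of this kind is a description of the letters and not a binding site.

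Abcb1a ran from 28.7 to 39.3 CPM in the controls, with a median of 34.5. The THI livers read 67.8, 51.5, 60.6 and 41.9 CPM, all above the controls. The THI+CTD livers read 50.5, 50.9, 50.5 and 66.0 CPM and also lay above the controls throughout. Both groups were called, at a log2 fold change of 0.68 for THI (SE 0.17, adjusted p = 0.0486) and of 0.66 for THI+CTD (SE 0.17, adjusted p = 0.0163). The THI call was kept only without Control replicate 2 or THI replicate 4. Leaving out any of the other 7 controls or THI replicates 1, 2 or 3 gave adjusted p between 0.0624 and 0.292. The THI+CTD call was lost only without THI+CTD replicate 4 (log2 0.55, adjusted p = 0.0932).

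In the other groups Abcb1a spread more widely. The IMZ livers read 59.1, 43.4, 41.4 and 35.5 CPM, the CTD livers 55.0, 55.1 and 27.2 CPM, and the THI+IMZ livers 67.2, 50.5, 37.1 and 30.5 CPM. Each of these groups overlapped the controls, and none was called (log2 0.38, 0.41 and 0.42, adjusted p = 0.553, 0.157 and 0.298). Without CTD replicate 3, the lowest of its group, the CTD difference was 0.67 (adjusted p = 0.0136). The IMZ+CTD livers read 29.3, 24.5, 27.7 and 29 CPM, of which 2 lay below all controls (log2 -0.32, SE 0.17, adjusted p = 0.449). With only those 2 groups in the fit, the adjusted p of that difference was 0.0453. The genes most like Abcb1a over the 31 livers were Slc35e3 (r = 0.787), Akap1 (r = 0.783) and Acot4 (r = 0.775), of which Akap1 anchors protein kinase A at mitochondria and Acot4 is a peroxisomal acyl-CoA thioesterase.

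Abcb1b ran from 3.4 to 13.8 CPM in the controls, with a median of 9.97, and the CTD livers read 49.5, 16.2 and 9.84 CPM. CTD replicate 1 was the highest of all 31 livers, replicate 2 lay just above the controls, and replicate 3 lay within them. The CTD difference was called (log2 1.50, SE 0.36, adjusted p = 0.00495). Without CTD replicate 1 it was 0.55 (adjusted p = 0.445), so the call rests on this liver. The other treated livers read from 4.90 to 10.1 CPM for THI and from 7.85 to 15.7 CPM for IMZ. They read from 9.93 to 26.04 CPM for THI+IMZ, from 10.6 to 22.2 CPM for THI+CTD and from 9.20 to 19.8 CPM for IMZ+CTD. None of these groups was called, with log2 differences of -0.20, 0.51, 0.91, 0.79 and 0.81 and adjusted p from 0.211 to 0.900.

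The genes most like Abcb1b were Sgol2 (r = 0.836), a guardian of centromere cohesion, Tpx2 (r = 0.832), a spindle assembly factor, and H2afx (r = 0.827), a histone variant. A list of 6 genes of dividing cells, Mki67, Top2a, Ccnb1, Cdk1, Ube2c and Bub1b, was set beside it. Their summed level was 4.14 to 13.2 CPM in the controls and 134, 46.8 and 34.5 CPM in CTD replicates 1, 2 and 3, in the same order as Abcb1b. Over the 31 livers log2 Abcb1b followed the log2 sum with r = 0.767, and with r = 0.57 after the group means were removed. In THI, where Abcb1b was lowest, the sum was 3.09 to 12.4 CPM. All 6 genes were called up under CTD, THI+CTD and IMZ+CTD, 4 under THI+IMZ and 0 under THI or IMZ in edgeR (unadjusted p under 0.05 for 0 and 6 of them). Bub1b was at 0 in 1 of the 31 livers and the other five were above 0 in all of them, and their part in the Abcb1b result was not tested. Abcb1a and Abcb1b hardly moved together over the 31 livers (r = 0.063).

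**Figure D3:**
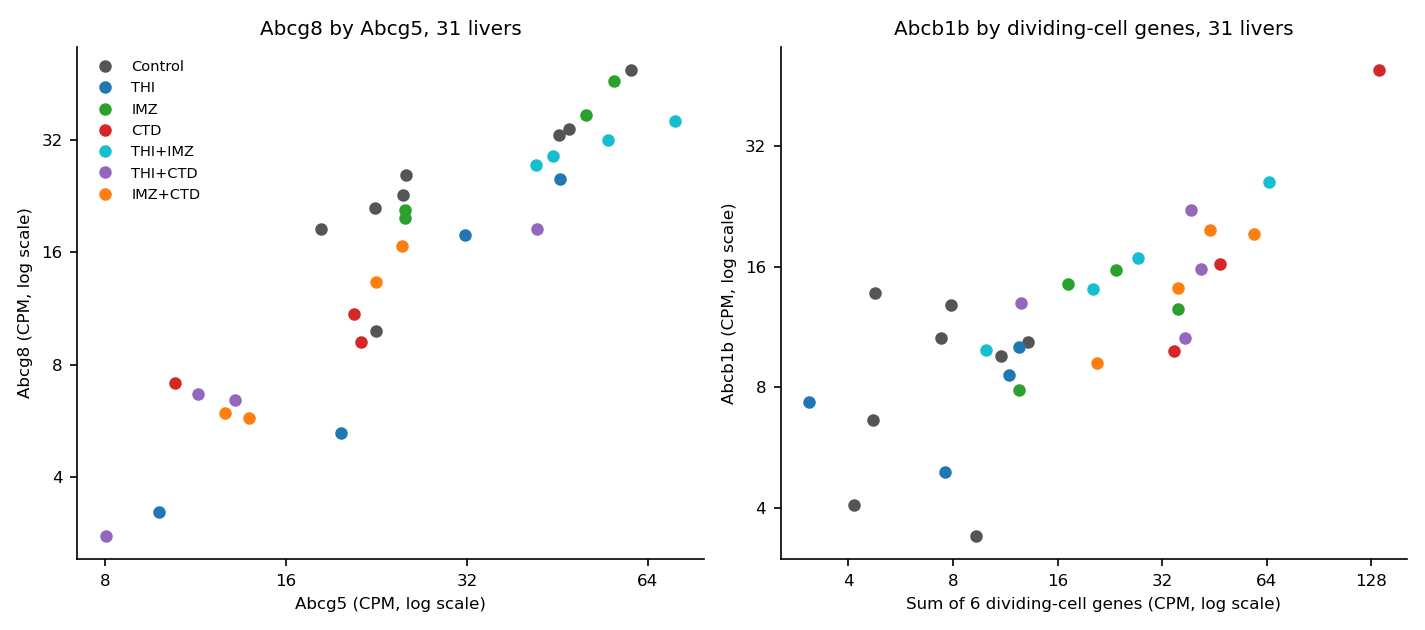
Abcg8 against Abcg5 (left) and Abcb1b against the summed level of 6 genes of dividing cells (right) in 31 livers, in CPM on log axes, colored by treatment group. Abcg5 and Abcg8 rise together (r = 0.920 on the log2 scale), and CTD replicate 1 is the highest liver on both axes of the right panel, at 49.5 and 134 CPM.

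Abcg5 (ENSRNOG00000005250) and Abcg8 (ENSRNOG00000005420) encode the paired subunits of the sterol pump that sends cholesterol and plant sterols into bile. Their start sites lie back to back on chromosome 6, with 205 bases between them. This stretch is shown because both genes read outward from it (RefSeq, GRCr8, 5′ to 3′ on the Abcg5 strand), with capitals for the same motifs as above.
Between Abcg8 and Abcg5, chr6:15717731-15717935, plus strand: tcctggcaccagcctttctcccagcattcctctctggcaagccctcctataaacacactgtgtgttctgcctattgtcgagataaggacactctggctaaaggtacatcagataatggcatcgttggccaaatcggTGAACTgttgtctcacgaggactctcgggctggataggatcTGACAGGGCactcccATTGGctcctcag
The stretch held 1 match each to AGTTCA, TGACNNNGC and CCAAT, and 0 to AGGTCA.

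Abcg8 ran from 9.83 to 49.1 CPM in the controls, with a median of 24.2. The CTD livers read 9.18, 7.16 and 10.9 CPM, below 7 of the 8 controls. The THI+CTD livers read 6.43, 2.79, 6.66 and 18.5 CPM, and those of IMZ+CTD 5.75, 13.3, 16.6 and 5.94 CPM. The differences were -1.56 for CTD (log2, SE 0.52, adjusted p = 0.0446), -1.65 for THI+CTD (SE 0.46, adjusted p = 0.0355) and -1.36 for IMZ+CTD (SE 0.46, adjusted p = 0.147), so that the first 2 were called and both groups still overlapped the controls. THI livers split, at 25.1, 3.23, 17.8 and 5.26 CPM (log2 -1.07, SE 0.45, adjusted p = 0.472). IMZ livers at 20.7, 46.0, 37.3 and 19.8 CPM and THI+IMZ livers at 31.9, 36.0, 27.4 and 28.9 CPM lay within the control range, with log2 differences of 0.20 and 0.21.

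Both Abcg8 calls were near the threshold. The CTD call was lost without Control replicates 1, 3, 4, 7 or 8 or without any of the 3 CTD rats, with adjusted p between 0.0505 and 0.170. The THI+CTD call was lost without Control replicates 1 or 3 or THI+CTD replicates 1, 2 or 3, with adjusted p between 0.0550 and 0.140, and the difference was -2.34 without THI+CTD replicate 4.

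Abcg5 ran from 18.3 to 60.1 CPM in the controls, with a median of 25.2. The CTD livers read 21.3, 10.47 and 20.8 CPM. The THI+CTD livers read 13.2, 8.03, 11.4 and 41.9 CPM, and the IMZ+CTD livers 13.9, 22.6, 24.9 and 12.7 CPM. In THI+CTD, 3 of 4 livers lay below all controls and replicate 4 within them. The log2 differences of -0.93, -0.85 and -0.85 were not called (adjusted p = 0.185, 0.256 and 0.361), and without THI+CTD replicate 4 that of THI+CTD was -1.62 (adjusted p = 0.0173). THI livers read 45.7, 9.83, 31.8 and 19.7 CPM, IMZ livers 25.2, 56.1, 50.4 and 25.2 CPM, and THI+IMZ livers 55.0, 71.0, 41.7 and 44.5 CPM (log2 -0.33, 0.23 and 0.67, none called).

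The pair was correlated in log2 CPM over the 31 livers (r = 0.920), within groups (r = 0.909) and in the 8 controls alone (r = 0.821). The log2 level of Abcg5 minus that of Abcg8 depends on the lengths of the genes, but its change between groups does not. It was 0.33 ± 0.40 (SD, n = 8) in the controls. It was 1.30 ± 0.53 under THI (n = 4), 0.34 ± 0.07 under IMZ (n = 4), 0.89 ± 0.33 under CTD (n = 3), 0.75 ± 0.17 under THI+IMZ (n = 4), 1.12 ± 0.31 under THI+CTD (n = 4) and 0.93 ± 0.31 under IMZ+CTD (n = 4). These are differences of log2 levels within a liver and were not tested. One control, replicate 2, reached 1.20. The genes next most like Abcg8 were Pop1 (r = 0.685), a subunit of RNase P and RNase MRP, Cpn2 (r = 0.676), a subunit of carboxypeptidase N, and Elp3 (r = 0.661), a subunit of the Elongator complex.

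Under CTD and THI+CTD, where 12.7% and 4.39% of all genes were called, some markers of other cells were called too. Calls of 1 or 2 genes in lists this short were not tested against these shares. Of 6 Kupffer cell markers, 2 were called down under CTD (Cd68 and Csf1r) and 2 under THI+CTD (Cd163 and Csf1r). Their summed level was 247 to 351 CPM under CTD and 255 to 310.1 CPM under THI+CTD, against 303 to 490 CPM in the controls. Of 7 endothelial markers, Cdh5 and Kdr were called down under CTD and Kdr under THI+CTD, with sums of 195 to 244 CPM and 216 to 257 CPM against 225 to 309 CPM in the controls. Of 6 markers of stellate cells and fibroblasts, the collagen gene Col3a1 was called up under CTD and Col1a1 under THI+CTD. These markers summed to 360.1 to 495 CPM under CTD and 322 to 464 CPM under THI+CTD, against 228 to 392 CPM in the controls. Most of that sum is Col3a1, which alone averaged 252 CPM in the controls. The median log2 fold change of the 6 genes was 0.06 under CTD and -0.16 under THI+CTD, so the list as a whole did not rise with its sum. Of the red blood cell markers tested, Hbb, Hba1 and Alas2 were called up and Slc4a1 down under CTD, with sums of 124 to 149.8 CPM against 22.2 to 52.2 CPM in the controls. Under THI+CTD Hbb was called up, and the sum was 29.5 to 171.8 CPM. Of the 7 cholangiocyte markers, 1 was called down under CTD and 0 were called under THI+CTD in edgeR (unadjusted p under 0.05 for 1). They summed to 15.6 to 19.1 CPM under CTD and 17.99 to 23.1 CPM under THI+CTD (median 20.2), against 13.5 to 19 CPM in the controls (median 16.5). Of the 6 hepatocyte markers, Asgr1 was called down under both treatments (log2 -0.56, SE 0.16, and -0.48, SE 0.14). The part of these cells in the transporter calls under CTD and THI+CTD was not tested.

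The bile salt export pump Abcb11 (ENSRNOG00000050860) drives bile acid secretion across the canalicular membrane. It ran from 542 to 769 CPM in the controls (median 622) and from 478 to 719 CPM in the 23 treated livers. Its log2 differences were between -0.09 and 0.03 in the 6 treatments, each with an SE of 0.09 to 0.10, and the widest 95% intervals reached -0.28 and 0.24. Over the 6 treatments these differences spanned less than those of any other of the 9 transporters. Abcc2 (ENSRNOG00000046727, MRP2), which excretes bilirubin glucuronides and glutathione conjugates into bile, ran from 637 to 1040.4 CPM in the controls (median 929) and from 798 to 1357 CPM in treated livers. Its largest difference was 0.27 under THI (SE 0.11, 95% interval 0.05 to 0.49, adjusted p = 0.452), where the livers read 1357, 1036, 1152 and 828 CPM. The Abcc2 window before the start site held 2 matches to AGGTCA, 2 to AGTTCA and 1 to CCAAT.

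Abcb4 (ENSRNOG00000029207, MDR2) flips phosphatidylcholine into bile. It ran from 139.7 to 187 CPM in the controls, with a median of 155. The THI+IMZ livers read 235, 204, 226 and 203 CPM, all above the controls. The difference of 0.45 (log2, SE 0.13, adjusted p = 0.0878) was not called in the fit of all groups, but was called by the Wald test of DESeq2 (adjusted p = 0.0335) and with only these groups in the fit (adjusted p = 0.0230). In the other treatments its log2 difference was between -0.17 and 0.13. The CTD livers read 187, 96.3 and 184 CPM, replicate 2 being the lowest of all 31. Abcg2 (ENSRNOG00000007041, BCRP), a canalicular pump of sulfates and drugs, ran from 8.55 to 19.6 CPM in the controls (median 11.03) and from 4.31 to 19.4 CPM in treated livers. Its log2 differences ran from -0.53 under THI (SE 0.28, 95% interval -1.10 to 0.05) to 0.26 under IMZ+CTD (SE 0.27, 95% interval -0.30 to 0.81), and none was called.

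For each mixture the log2 fold change was set against the sum of those of its compounds, weighted by the share of the single dose given (0.5 for THI and IMZ, 0.47 for CTD). This is a plain reference line and not a model of the mixture. Of the 9 transporters, 0 departed from it under THI+IMZ (0.0151% of all genes were called) and 0 under THI+CTD (0.286%), in edgeR as in DESeq2. The unadjusted p in edgeR was under 0.05 for 3 and 0 transporters, beside 1286 and 1922 of all genes. Under IMZ+CTD 1 departed (1.16% of genes), namely Abcb1a, which had a weighted sum of 0.38 and was found at -0.32, a difference of -0.70 (SE 0.18, adjusted p = 0.0432). That call was lost on leaving out any IMZ+CTD rat, Control replicates 1 or 8, IMZ replicates 1, 2 or 3, or CTD replicates 1 or 2 (adjusted p up to 0.144).

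Abcc3 was found at 2.78 under THI+IMZ for a weighted sum of 2.53, at 2.82 under THI+CTD for 2.35, and at 1.65 under IMZ+CTD for 2.23. The differences of 0.25, 0.47 and -0.58 were not called (SE 0.23, 0.23 and 0.24, adjusted p = 0.957, 0.522 and 0.258), and their 95% intervals were -0.23 to 0.72, 0.00 to 0.95 and -1.08 to -0.08. Abcb4 under THI+IMZ was found 0.48 above its sum (SE 0.13, adjusted p = 0.237).

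**Figure D4:**
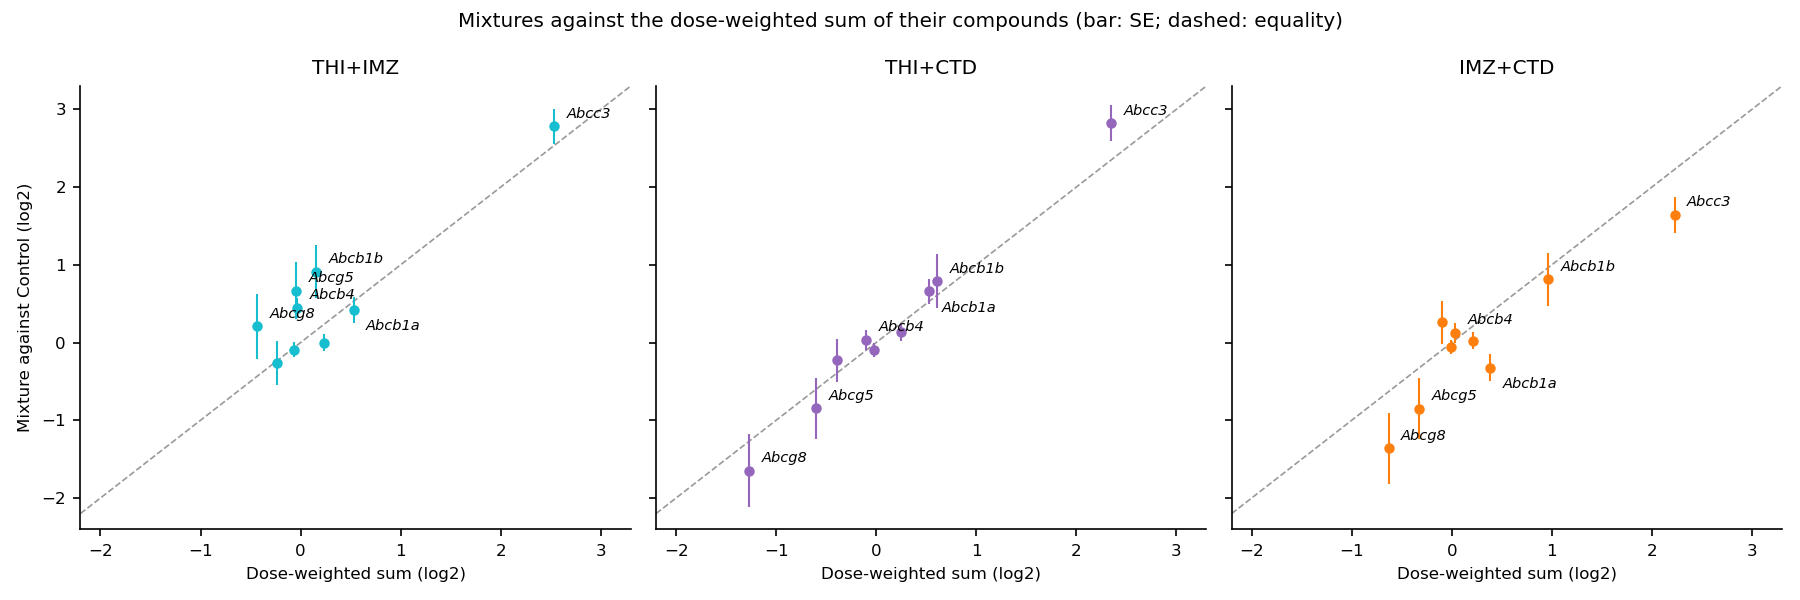
Log2 fold change of each transporter in the mixtures against Control (vertical axis, bars for the SE) by the dose-weighted sum of the compounds (horizontal axis), with a dashed line of equality. Abcc3 lies above the line under THI+IMZ and THI+CTD and below it under IMZ+CTD, and Abcb1a under IMZ+CTD is found at -0.32 for a sum of 0.38.

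The single compounds differed in dose (108, 93 and 288 mg/kg bw/day), so comparisons between them are of these dose groups. Between CTD and THI 1 transporter was called (6.62% of all genes), Abcb1b, higher under CTD by 1.70 (SE 0.44, adjusted p = 0.0138). It was 0.75 (adjusted p = 0.398) without CTD replicate 1 and 1.54 (adjusted p = 0.0541) without THI replicate 4, and with only these groups in the fit the adjusted p was 0.0668. Between CTD and IMZ 0 were called in edgeR (4.67% of all genes, unadjusted p under 0.05 for 3 transporters and 3565 of all genes). The 3 CTD livers lay below all 4 IMZ livers for Abcg8 (log2 -1.77, SE 0.57, adjusted p = 0.0675, and 0.0309 by DESeq2) and for Abcg5 (log2 -1.16, SE 0.49, adjusted p = 0.190). How many of all genes separated these 2 groups was not counted. Between THI and IMZ 0 were called in edgeR or DESeq2 (0.01% of all genes), and Abcc3 differed by 0.25 with a 95% interval of -0.31 to 0.80. The unadjusted p in edgeR was under 0.05 for Abcg8 only among the transporters, and for 1026 of all genes.

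Between mixtures, THI+CTD exceeded IMZ+CTD in Abcb1a by 0.98 (log2, SE 0.20, adjusted p = 0.0268), the only call of that pair (0.176% of all genes), and no liver overlapped. The call was lost without THI+CTD replicates 2, 3 or 4 or any IMZ+CTD rat, with differences from 0.87 to 1.01 and adjusted p from 0.0510 to 0.133. Abcc3 was also higher in every THI+CTD than in every IMZ+CTD liver (log2 1.18, SE 0.27, adjusted p = 0.0727, and 0.0136 by DESeq2). Between THI+CTD and THI+IMZ 0 were called in edgeR (0.171% of all genes, unadjusted p under 0.05 for 3 transporters and 2014 of all genes). There, Abcg8 was lower in all 4 THI+CTD livers (log2 -1.86, SE 0.51, adjusted p = 0.141, and 0.0388 by DESeq2) and Abcg5 in 3 of 4 (log2 -1.51, SE 0.45, adjusted p = 0.171). Abcb4 was lower in all 4 as well (log2 -0.41, SE 0.15, adjusted p = 0.287). Without THI+CTD replicate 4 the Abcg8 and Abcg5 differences were -2.56 and -2.30 (adjusted p = 0.0395 and 0.0249). Between THI+IMZ and IMZ+CTD 0 were called in edgeR (0.0653% of all genes) and 2 by DESeq2, Abcc3 and Abcb1a. The DESeq2 share of all genes was not counted for this pair. The unadjusted p in edgeR was under 0.05 for 5 transporters and for 1785 of all genes. There THI+IMZ was higher in all 4 livers for Abcg5 (log2 1.52, SE 0.45, adjusted p = 0.242), Abcg8 (1.57, SE 0.51, adjusted p = 0.292), Abcc3 (1.14, SE 0.27, adjusted p = 0.135), Abcb1a (0.75, SE 0.20, adjusted p = 0.183) and Abcb4 (0.32, SE 0.15, adjusted p = 0.530). How many of all genes separated any 2 mixtures was not counted, so these separations describe single genes and not the transporters as a set. Without THI+IMZ replicate 4 the Abcb1a difference was 0.90 (adjusted p = 0.0387).

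Among 16 known regulators of these pumps, Nr1i3 (CAR) was called up under CTD (log2 1.10, SE 0.29, adjusted p = 0.0099), THI+IMZ (1.24, SE 0.26, adjusted p = 0.0122) and THI+CTD (1.37, SE 0.26, adjusted p = 0.0019). It averaged 9.16 CPM ± 4.43 (SD, n = 8) in the controls and 10.6 to 23.7 CPM in the treated groups. Ppara, the receptor of fatty acids, was up under THI+IMZ (0.73, SE 0.14), Rxra, the partner of these receptors, was down under CTD (-0.34, SE 0.09), and Nr1i2 (PXR) was down under IMZ+CTD (-0.37, SE 0.09). Counts up and down were 0 and 0 for THI and IMZ, 1 and 2 for CTD, 2 and 0 for THI+IMZ, 1 and 0 for THI+CTD and 0 and 1 for IMZ+CTD, with list medians between -0.13 and 0.08. The shares of all genes called were 0.543%, 0.251%, 12.7%, 1.18%, 4.39% and 1.46% in the same order. The FXR gene Nr1h4, the LXR genes Nr1h3 and Nr1h2, and Nfe2l2 (NRF2) were not called.

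Of 17 partners in bile and sterol transport, Cyp7a1, the rate-limiting enzyme of bile acid synthesis, fell under THI (log2 -2.45, SE 0.55, adjusted p = 0.0275) and THI+IMZ (-2.90, SE 0.56, adjusted p = 0.00548). Its level was 235 CPM ± 107 (SD, n = 8) in the controls, 43.0 ± 19.3 (n = 4) under THI and 31.5 ± 9.40 (n = 4) under THI+IMZ. The mean was also lower, without a call, under CTD (96.1 ± 60.7, n = 3), THI+CTD (99.3 ± 36.7, n = 4) and IMZ+CTD (87.3 ± 79.2, n = 4). Under IMZ it was 209 ± 181 (n = 4). The paper, which used DESeq2, reports Cyp7a1 as significantly lowered in every treatment but IMZ. Cyp8b1, which makes cholic acid, fell under CTD (-1.17, SE 0.39, adjusted p = 0.0430), and Scarb1, the HDL receptor, rose under THI+CTD (0.29, SE 0.09, adjusted p = 0.0466). The list held 0 further calls in the 6 comparisons, and its medians were between -0.07 and 0.04. Of all genes, 0.543% were called under THI, 1.18% under THI+IMZ, 12.7% under CTD and 4.39% under THI+CTD. The basolateral bile acid exporter subunit Slc51a was at 0 in 27 of the 31 libraries, and Slc51b in 20.

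Of 39 other ABC genes in the table, 5 were called under CTD, 1 under THI+IMZ and 2 under THI+CTD. Under THI, IMZ and IMZ+CTD 0 were called in edgeR (unadjusted p under 0.05 for 5, 1 and 10, beside 1728, 1608 and 2557 of all genes). The shares under CTD and THI+CTD were near those of all genes (12.7% and 4.39%). Of the 5 under CTD, 3 fell, among them Abcg3l1 (log2 -0.66, SE 0.18), while the peroxisomal Abcd3 (0.46, SE 0.12) and the ribosome recycling factor Abce1 (0.36, SE 0.09) rose. Abcd3 rose under THI+CTD too (0.56, SE 0.11), and Abca8a fell under THI+IMZ (-0.49, SE 0.12) and THI+CTD (-0.58, SE 0.12). The median log2 fold change of these 39 genes was between -0.15 and -0.01 in the 6 comparisons.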

How the data were processed

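Livers of 31 rats were measured by RNA-Seq. From strand-specific libraries of total RNA, the authors removed adapters, aligned reads to Rnor_5.0 with STAR 2.5.2b and deposited raw counts per Ensembl gene. Annotation release and strand setting of the counting are not given in the sources used here. A second deposited table holds a normalized signal, which equalled counts divided by DESeq2 size factors and was used only as a check. Groups and replicate numbers came from sample titles. Here, genes whose counts summed to 2 or more (19904 of 26312) were fitted with edgeR 4.0.16 in R 4.3.3 (TMM, 1 mean per group, quasi-likelihood test, Benjamini-Hochberg over all genes), and the SE is the log2 fold change over the square root of F. CPM used TMM factors, and log2 CPM a prior count of 2. DESeq2 1.42.0, other filters, scalings, samples and thinned counts were alternatives. Scripts were tested on simulated data. Members, gene lists and tests were chosen with earlier results of these data known. Named genes are all members, for called members the 3 genes with the highest correlation, called genes of the regulator, partner and other ABC lists (at most 6 each), Cyp2b1 and Nqo1. Nothing in the sample titles ties a replicate number to a pairing of the rats, so no block was used in the fit reported. Libraries held 31.8 M to 101.2 M counts, and the common biological coefficient of variation was 19.4%. Some genes of the lists enter the counts and medians but are not reported here one by one.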

Additional observations from a re-analysis of the deposited data

Results flagged for a closer look

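In 6 of 54 sets of 4 or 8 livers (9 transporters in 6 groups) the highest or lowest liver stood apart by Dixon's criterion, where chance gives about 1 in 20, or 3. They were Abcc3 in Control replicate 4 (25.24 CPM), Abcc2 in Control replicate 2 (636.7 CPM, the lowest control) and in IMZ replicate 4 (1106 CPM), Abcb11 in THI replicate 3 (661 CPM) and in THI+IMZ replicate 2 (477.7 CPM, the lowest of its group), and Abcb1a in THI+CTD replicate 4 (65.96 CPM). The criterion was applied only to sets of 4 or more livers, which left out the CTD group with 3. The Abcb1b value of 49.5 CPM in CTD replicate 1 was therefore not covered by it.

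In 3 cases a test of the difference between treatments was passed. Abcb1b differed between CTD and THI (log2 1.70), Abcb1a between THI+CTD and IMZ+CTD (log2 0.98), and Abcb1a under IMZ+CTD lay -0.70 from the dose-weighted sum of IMZ and CTD. Each of these was lost when 1 of several rats was left out, as given with its values above.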

How the results depend on the processing

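Of 14 calls of a transporter, the 6 of Abcc3 held under all alternatives and without any rat of the groups compared. Over the 14, 119 of 127 alternative fits and 118 of 163 fits without 1 rat kept the call, and 0 reversed. Other size factors, filterByExpr, the newer quasi-likelihood method and thinning to the smallest library changed no member call. Without a filter on low counts THI kept 1 call of 2. With only the groups compared, calls were 2 for THI+IMZ, 2 for IMZ+CTD, 0 for CTD against THI, 1 for CTD against IMZ and 2 for THI+CTD against IMZ+CTD. The Wald test of DESeq2 gave 2 for THI+IMZ, 1 for CTD against IMZ, 1 for THI+CTD against THI+IMZ, 2 for THI+CTD against IMZ+CTD and 2 for THI+IMZ against IMZ+CTD. For comparisons between treatments, the shares of all genes called in these alternatives were not counted. The cause of these changes was not tested.

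Deviations of same-numbered rats from their group means had a median r of 0.023 (78 pairs, range -0.27 to 0.42, 20 over 0.1). Of 27 rats, 9 correlated best with their own number. Pairs of unlike number were not tabulated beside them, so these values cannot exclude a pairing. With the replicate block, members called were 1 for THI, 1 for CTD, 1 for THI+CTD and 0 for IMZ+CTD against its sum, and genes called were 45 for THI, 23 for IMZ, 1571 for CTD, 53 for THI+IMZ and, with CTD, 348 for THI+CTD and 80 for IMZ+CTD. The fit reported gave 108, 50, 2518, 235, 873 and 290 genes. With the block, every call of Abcb1a, Abcb1b and Abcg8 against Control was lost. Control replicates 5 to 8 have no treated rat of the same number, so the block in effect took them out of the comparisons. The lower counts with the block mix this loss of controls with the blocking itself. DESeq2 gave 199 for THI, 150 for IMZ, 435 for THI+IMZ and, with CTD, 1386 for THI+CTD and 567 for IMZ+CTD, and IMZ gave 93 with only the groups compared. The share of called genes that rose moved under DESeq2 from 69.4% to 54.8% for THI, from 76% to 55.3% for IMZ and from 69% to 58.7% for IMZ+CTD.

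Without 1 rat, genes called ran from 67 to 120 for THI, 28 to 59 for IMZ, 1470 to 2556 for CTD, 143 to 297 for THI+IMZ and, with CTD, 450 to 969 for THI+CTD and 98 to 366 for IMZ+CTD. Members called ran from 1 to 2 for THI, 1 to 3 for CTD, 2 to 3 for THI+CTD, 0 to 1 for IMZ+CTD against its sum, 0 to 1 for CTD against THI, 0 to 2 for THI+CTD against THI+IMZ, 0 to 1 for THI+CTD against IMZ+CTD and 0 to 1 for THI+IMZ against IMZ+CTD. Only rats of the groups compared were left out. The 3 CTD rats limit what can be seen for that compound, and no scaling moved the median of all genes by over 0.1.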
